A study of Mytilus galloprovincialis with 18 samples.

Results

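The transcripts described here are those of cytochrome b and of the mitochondrial NADH dehydrogenase subunits (ND) in mussel gills. They were measured by 6 of the 1920 probes of a spotted cDNA array. The members were all probes whose description, among the 434 that the study's supplementary lists give, names cytochrome b or an ND subunit, without those of cytochrome c oxidase. The study put probes on these lists because of their mean and spread on these same arrays, so the values at a listed dose chose the members and are given below as a description. No p against the pool is given for a single member at a listed dose, though a call at such a dose is named. Nothing is read from a count of calls that includes such values. Of the 18 combinations of a probe and a dose, 9 were listed by the study (3 of them at the lowest dose, 1 at 100 nM and 5 at the highest) and 9 were not. The other 1486 probes carry no description here and may hold further mitochondrial transcripts.

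Adult Mytilus galloprovincialis of mixed sex from a farm were kept in tanks and exposed for 48 h to an equimolar mixture of Cd, Cu and Hg chlorides at 50, 100 or 200 nM. Gill RNA of 3 mussels per dose, 9 in all, was hybridised against a pool of gill RNA from 5 unexposed mussels, which is the control on all 18 arrays. Each mussel had 2 arrays, called A and B, with opposite labelling by Cy3 and Cy5. Each value below is the log2 test/reference ratio of 1 treated mussel over this pool, averaged over both arrays, so that a negative value stands for less signal in the mussel than in the pool and 0 for equal signal. Every dose was held in a single tank, and the controls in another, so dose and tank cannot be told apart. The pool counts as 1 control sample, and the tests against it leave out the spread between control mussels.

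Cytochrome b is a subunit of complex III, the complex that passes electrons from ubiquinol to cytochrome c. The ND subunits form the membrane arm of complex I, which takes electrons from NADH and pumps protons. In animals both are encoded by the mitochondrial genome, which is transcribed as long precursors that are cut into the separate RNAs, whereas most other subunits of the chain are nuclear. Mussels of this genus are known for mitochondrial genomes that pass through mothers and, in sons, also through fathers. The gill moves water with ciliated cells and is rich in mitochondria.

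Of the 6 probes, 3 name cytochrome b: Myt01-010A03 (sequence cluster MGC10011), Myt01-011C05 (MGC10000) and Myt01-019B12 (MGC10002). Myt01-019B05 (MGC10007) names ND1, by similarity to Mytilus edulis, and Myt01-019B08 (MGC02110) names ND6. Myt01-005F09 (MGC10006) names ND5, ND6 and cytochrome b together. The cluster of Myt01-019B12 is also that of a cytochrome c oxidase subunit II probe, Myt01-019B11. The probe sequences and their overlap were not analysed here, so how far the probes bind the same RNA is not known.

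Across the 54 values of 6 probes in 9 mussels, 40 were below 0, and 34 when the sign of 50 nM replicate 3, whose direction is not settled, was turned. The lower values were not shared evenly: ND1 was above 0 in every mussel at 200 nM, and the ND6 probe spanned both signs. The median of the 6 dose means was -0.33 at 50 nM, -0.09 at 100 nM and -0.47 at 200 nM, beside 0.0037 at 50 nM, 0.0042 at 100 nM and -0.02 at 200 nM over all 1920 probes. Listed values, chosen for their departure from 0 on these arrays, enter the members' medians and the counts below 0. The distance from all probes is therefore a description, from which nothing is read. The share of values below 0 over all probes was not counted. With 50 nM replicate 3 turned, the median of the members at 50 nM was 0.016, so the lower value at that dose depends on the sign given to this mussel. Within 50 nM replicates 1 and 2, whose sign was not turned, the median of the members was -0.27 and -0.19. All 6 probes were below 0 in 50 nM replicate 3 and in 100 nM replicate 3, and 2 of 6 were below 0 in 100 nM replicate 1.

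**Figure D1:**
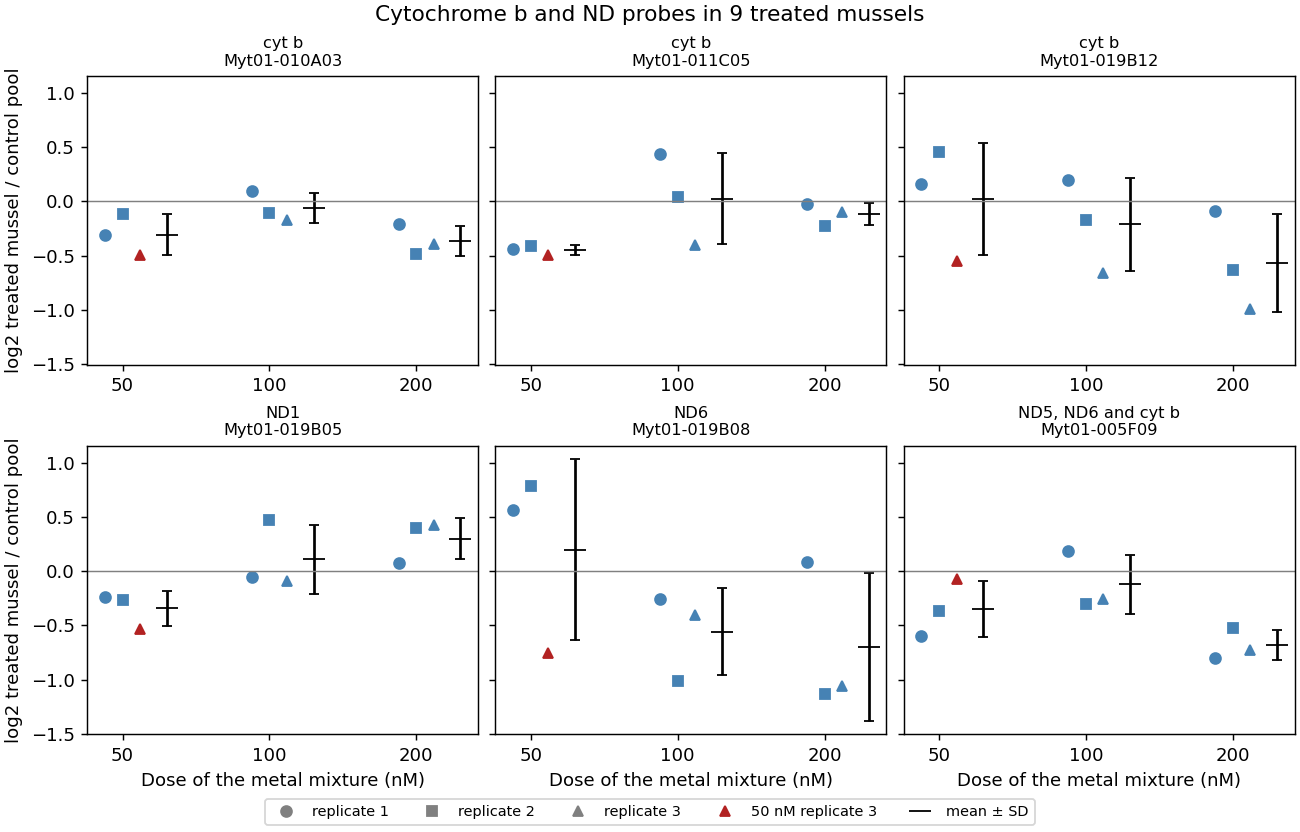
Log2 ratio of each treated mussel over the control pool (y axis) by dose of the metal mixture in nM (x axis) for the 6 probes, with 1 symbol per mussel and the mean ± SD of 3 mussels in black. At 200 nM the mean of the ND1 probe was 0.30, whereas the means of the other 5 probes lay between -0.70 and -0.11; 50 nM replicate 3, drawn in red, has no settled direction.

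At 50 nM, replicate 3 stood apart from the other mussels. Over all probes its ratios correlated on average at -0.14 with those of the other mussels on arrays of the same dye orientation, with a lowest r of -0.31 on array A, against a mean of 0.20 (array A) and 0.24 (array B) among the others. The direction of its ratio is therefore not settled, although the file headers give the same direction as for every other array, and the means, medians and counts of the members at 50 nM are also given with its sign turned. In range over the arrays, the median spot intensity was 361 to 1334 for treated mussels and 245 to 2787.5 for the pool. All 36 spots of each of the 6 probes were more than 2 SD above the local background in both channels. Over all probes, limma with Benjamini-Hochberg adjustment passed 39 probes at 200 nM at an adjusted p under 0.05 and 0 at each of the lower doses. In the order of rising dose, 72, 183 and 347 probes had an unadjusted p under 0.05, and one-class SAM (significance analysis of microarrays) called 0, 10 and 31.

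The cytochrome b probe Myt01-010A03 was lower than the pool in 8 of 9 mussels. Its log2 ratio was -0.31, -0.12 and -0.49 at 50 nM, 0.10, -0.10 and -0.17 at 100 nM, and -0.21, -0.49 and -0.39 at 200 nM, in the order of replicates 1 to 3. The mean at 100 nM lay nearest to 0, though 50 nM replicate 2 was nearer to 0 than 100 nM replicate 3. The mussels at 50 and 200 nM overlapped each other. The mean was -0.31 ± 0.19 at 50 nM, -0.06 ± 0.14 at 100 nM and -0.36 ± 0.14 at 200 nM (SD, n = 3 mussels), which at 200 nM is 77.7% of the pool's signal. The study listed this probe at 50 and 200 nM. At the unlisted 100 nM the difference was not past the threshold (limma adjusted p = 0.908, 95% interval of the mean -0.35 to 0.23). The mean at 50 nM became 0.02 when the sign of replicate 3 was turned.

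Myt01-011C05, also cytochrome b, was low in all 3 mussels at 50 nM and close to the pool at 200 nM. The values were -0.44, -0.41 and -0.50 at 50 nM, 0.43, 0.04 and -0.40 at 100 nM, and -0.02, -0.23 and -0.09 at 200 nM. The 50 nM mussels lay below all others, the nearest being 100 nM replicate 3, and the 100 nM mussels were spread on both sides of 0. The mean was -0.45 ± 0.04 at 50 nM, the dose at which the study listed it, 0.03 ± 0.42 at 100 nM and -0.11 ± 0.10 at 200 nM (SD, n = 3). At the unlisted doses limma gave an adjusted p of 0.979 at 100 nM (interval -0.31 to 0.36) and 0.781 at 200 nM (interval -0.45 to 0.22). The 200 minus 100 nM difference, for which neither dose was listed, was -0.14 (SE 0.22, adjusted p = 0.919, interval -0.62 to 0.34). Turning 50 nM replicate 3 moved the 50 nM mean to -0.12.

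Many spots of the cytochrome b probe Myt01-019B12 reached the top of the scanner's range. This was so for 13 of 36 spots of treated mussels and 14 of 36 spots of the pool, on 10 arrays and in 7 mussels. A saturated spot gives only a lower bound of its intensity. The log2 ratio was 0.16, 0.46 and -0.55 at 50 nM, 0.20, -0.17 and -0.65 at 100 nM, and -0.09, -0.63 and -0.99 at 200 nM. At 50 and 100 nM the mussels fell on both sides of 0, at 200 nM all 3 were below it, and the doses overlapped. The mean was 0.02 ± 0.52 at 50 nM, -0.21 ± 0.43 at 100 nM and -0.57 ± 0.45 at 200 nM (SD, n = 3), where the study listed it only at 200 nM. At 50 nM limma gave an adjusted p of 0.993 (interval -0.48 to 0.52), and at 100 nM an adjusted p of 0.775 (interval -0.70 to 0.29). The 100 minus 50 nM difference, with neither dose listed, was -0.23 (SE 0.32, adjusted p = 0.998, interval -0.93 to 0.47), and -0.60 with 50 nM replicate 3 turned (adjusted p = 0.944).

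Without its saturated spots Myt01-019B12 had no value in 50 nM replicate 1 and in 100 nM replicate 1. The remaining values were 0.45 and -0.91 at 50 nM, -0.29 and -1.29 at 100 nM, and -0.09, -0.90 and -0.99 at 200 nM. In 50 nM replicate 3 and 100 nM replicates 2 and 3 the value then rested on array A alone. In 200 nM replicate 2 it rested on array B alone. The mean without saturated spots was -0.23 at 50 nM (n = 2), -0.79 at 100 nM (n = 2) and -0.66 at 200 nM (n = 3). The order of the doses in the full data did not hold, but these means do not balance the dyes and leave out mussels. With all spots kept and 50 nM replicate 3 turned, the mean at 50 nM was 0.39. Among the other members only Myt01-011C05 had saturated spots, 3 of 36, all of the pool.

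The ND1 probe Myt01-019B05 was the member for which every mussel at the highest dose had the opposite sign to every mussel at the lowest. Its log2 ratio was -0.24, -0.26 and -0.53 at 50 nM, -0.06, 0.47 and -0.09 at 100 nM, and 0.08, 0.39 and 0.42 at 200 nM. The mussels at 200 nM and those at 50 nM did not overlap, and at 100 nM replicate 2 alone was above 0. The mean was -0.34 ± 0.16 at 50 nM, 0.11 ± 0.31 at 100 nM and 0.30 ± 0.19 at 200 nM (SD, n = 3), which is 78.8% of the pool's signal at 50 nM and 123% at 200 nM. The study listed this probe at both outer doses. At 100 nM the adjusted p was 0.828 by limma (interval -0.22 to 0.43). Turned, 50 nM replicate 3 moved the 50 nM mean to 0.01.

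The ND6 probe Myt01-019B08 had the widest spread of the members within doses, with a pooled SD of 0.66, which was above that of 96.9% of all probes. Its values were 0.57, 0.78 and -0.75 at 50 nM, -0.26, -1.01 and -0.40 at 100 nM, and 0.09, -1.13 and -1.05 at 200 nM. Of the treated mussels, 50 nM replicates 1 and 2 and 200 nM replicate 1 were above the pool, and the other 6 were below it. The mean was 0.20 ± 0.83 at 50 nM, -0.56 ± 0.40 at 100 nM and -0.70 ± 0.68 at 200 nM (SD, n = 3), or 68% of the pool's signal at 100 nM and 61.6% at 200 nM, the doses at which it was listed. At the unlisted 50 nM, limma gave an adjusted p of 0.992 (interval -0.46 to 0.85). If the sign of replicate 3 was turned, all 3 mussels at 50 nM were above 0, with a mean of 0.70 and an adjusted p of 0.27.

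The probe for ND5, ND6 and cytochrome b, Myt01-005F09, was lower than the pool in 8 of 9 mussels. The values were -0.59, -0.37 and -0.08 at 50 nM, 0.19, -0.30 and -0.25 at 100 nM, and -0.80, -0.53 and -0.72 at 200 nM. The 200 nM mussels were the lowest at -0.80 to -0.53, and 50 nM replicate 1 lay among them. The mean was -0.35 ± 0.26 at 50 nM, -0.12 ± 0.27 at 100 nM and -0.68 ± 0.14 at 200 nM (SD, n = 3), and at 200 nM, the dose at which the study listed it, this was 62.3% of the pool's signal. At the unlisted doses limma gave an adjusted p of 0.992 at 50 nM (interval -0.67 to -0.02) and 0.802 at 100 nM (interval -0.45 to 0.20). The 100 minus 50 nM difference, with neither dose listed, was 0.22 (SE 0.21, adjusted p = 0.998, interval -0.24 to 0.68), and 0.17 with 50 nM replicate 3 turned (adjusted p = 0.975). With 50 nM replicate 3 turned, the mean at 50 nM was -0.30.

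In the limma fit over all 1920 probes, 1 of the 6 members, Myt01-005F09, was called at 200 nM, where 2.03% of all probes were called and 1.15% were called lower, and 0 members were called at 50 and 100 nM, where 0% were. The 200 nM contrast chose this probe, so nothing is read from the count. One-class SAM called 0 members at each dose. Of the 9 unlisted combinations, 0 were called (adjusted p 0.775 to 0.993), and 1, Myt01-005F09 at 50 nM, had an unadjusted p under 0.05. At 50 nM 4 members were below 0 in all 3 mussels, against 9.74% of all probes, and with replicate 3 turned 0 were, against 13.7%. At 100 nM 1 member was, against 16.6%, and at 200 nM 4 members were, against 21.2%. These counts too rest in part on listed doses. At 200 nM 1 member, ND1, was above 0 in all 3 mussels, against 21.2% of all probes, and at 50 and 100 nM 0 members were, against 10.1% and 18.9% (with 50 nM replicate 3 turned, 2 members were at 50 nM, against 13.2%). Such opposite signs in all mussels of 200 and 50 nM as ND1 had were seen in 2.92% of all probes, and in 1.61% with the higher values at 200 nM.

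Between doses, 0 of the 6 members were called in any of the 3 pairs of doses, where 0% of all probes were called. Most of these differences rest on a listed dose, and nothing is read from that count. The 3 for which neither dose was listed are given above with their adjusted p. Within a mussel the gap between the highest and the lowest log2 ratio of the 3 cytochrome b probes was 0.06 to 0.89, with a median of 0.41. These gaps include the saturated spots of Myt01-019B12. Without those spots the gap was 0.19 to 1.11 in the 7 mussels with all 3 values. The gap of 1.11 was that of 100 nM replicate 3, where Myt01-019B12 then rested on array A alone.

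The difference between the dye-exchanged arrays did not enter the choice of the members. Agreement in sign between them depends on how far their mean lies from 0, which did enter it, and is given as a description. In 44 of the 54 values, both arrays gave the same sign, 8 of 9 mussels for Myt01-010A03, Myt01-019B12, ND6 and Myt01-005F09, and 6 of 9 for Myt01-011C05 and ND1. The share over all probes was not counted. The mean of array A minus array B over the 9 mussels was -0.01 for Myt01-010A03, -0.21 for Myt01-011C05, -0.19 for Myt01-019B12, -0.16 for ND1, -0.13 for ND6 and -0.06 for Myt01-005F09. For 0 of the 6 probes did dye orientation pass the threshold (limma adjusted p 0.602 to 0.972) or had an unadjusted p under 0.05, where 0% of all probes passed and 269 had an unadjusted p under 0.05.

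Single mussels could still differ between their arrays by more than the mean of a dose. In 100 nM replicate 3 the arrays read -0.98 (A) and 0.18 (B) for Myt01-011C05, -0.93 and 0.13 for ND6, and -1.29 and -0.02 for Myt01-019B12. These were the largest gaps of the 3 probes. By contrast, ND6 read 0.66 and 0.47 in 50 nM replicate 1 and -1.03 and -1.08 in 200 nM replicate 3, so that its spread between mussels was seen on both arrays. The median gap between the arrays was 0.15 for ND6, against 0.34 over all probes, and the median gap between the 2 spots of an array was 0.07 to 0.19 for the members, against 0.30 over all probes.

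**Figure D2:**
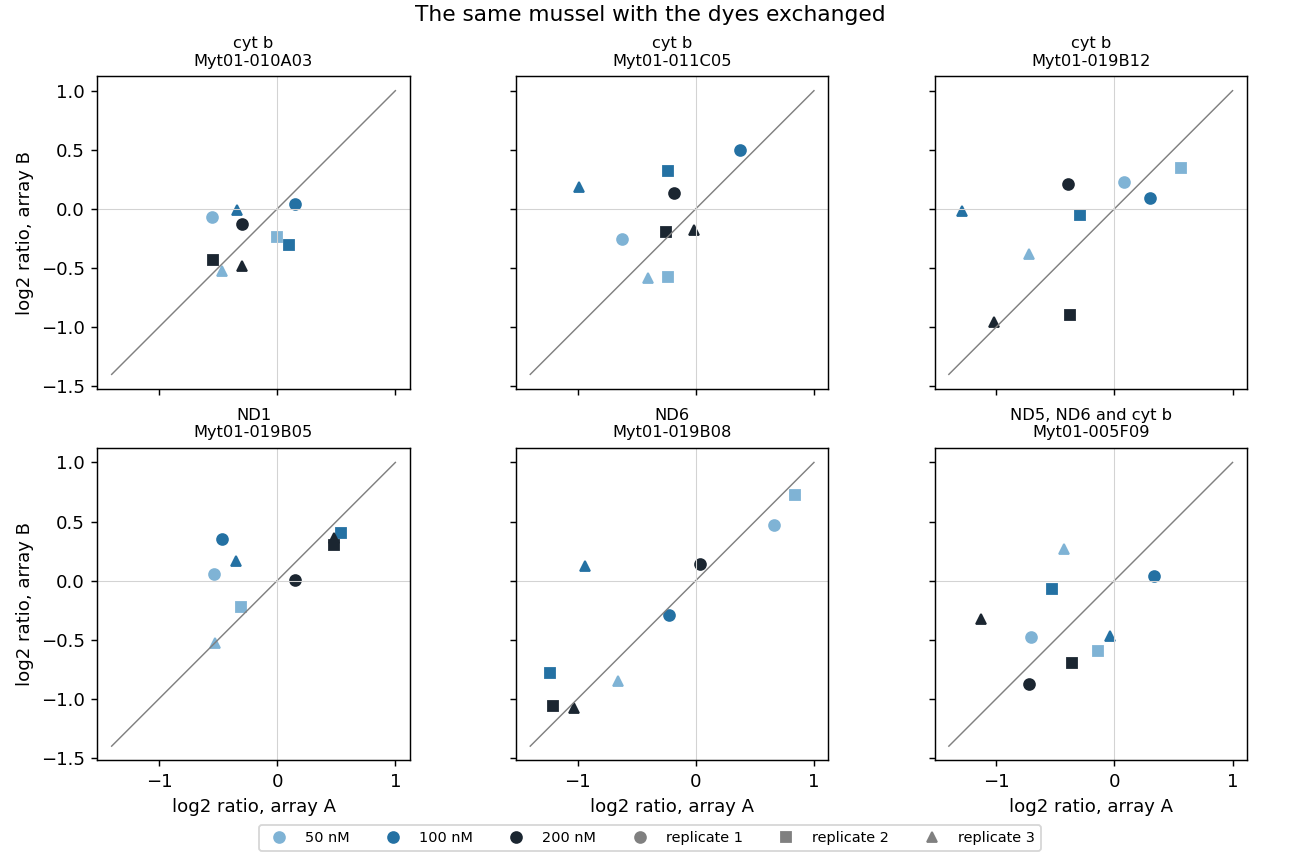
Log2 ratio on array A (x axis) and on the dye-exchanged array B (y axis) of the same mussel for the 6 probes, with shade for dose, symbol for replicate and a grey line where both arrays are equal. ND6 lay near this line from -1.21 to 0.84 on array A except for 100 nM replicates 2 and 3, whereas Myt01-011C05 and Myt01-005F09 scattered around it.

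How the members varied together among mussels of the same dose was compared next, since the lists were made from each probe's mean and spread and not from covariation. For each of the 15 pairs, the deviations of the 9 mussels from their dose means were correlated (Pearson's r and Spearman's rho), with an exact permutation test that exchanges mussels within doses (216 arrangements, two-sided, smallest possible p = 0.00463). The cytochrome b probes Myt01-010A03 and Myt01-019B12 had the highest correlation, r = 0.89 (exact p = 0.0231) and rho = 0.87 (exact p = 0.0324). Only 0.442% of all pairs of probes on the array reached that r. Leaving out the 2 mussels farthest from the median of Myt01-010A03 gave r = 0.83. After Benjamini-Hochberg adjustment over the 15 pairs the p was 0.174, not past the threshold.

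Myt01-010A03 also varied with the other cytochrome b probe, Myt01-011C05, at r = 0.66 (exact p = 0.00926, adjusted 0.139) and rho = 0.83 (exact p = 0.00926), and r was 0.55 without the 2 farthest mussels. With ND6 its r was 0.83 (exact p = 0.0463, adjusted 0.174), rho 0.83 (exact p = 0.037), and 0.82 without the 2 farthest. For Myt01-011C05 and Myt01-019B12, r was 0.64 (exact p = 0.0463, adjusted 0.174), rho 0.77 (exact p = 0.0324), and 0.58 without the 2 farthest. For ND6 and Myt01-019B12, r was 0.78 (exact p = 0.0602, adjusted 0.181), rho 0.82 (exact p = 0.0463), and 0.57 without the 2 farthest. These 5 pairs were those with r above 0.6, as were 8.44% of all pairs of probes, and 4 of the 15 had an unadjusted p under 0.05 and 0 passed after adjustment. With the reported processing, ND1 and Myt01-005F09 stood outside: in the 9 pairs that hold either of them, r lay between -0.41 and 0.39. This grouping depended on the processing. With the authors' log2 ratios r was 0.31 for Myt01-010A03 and Myt01-019B12, 0.23 for Myt01-010A03 and ND6, and 0.69 for Myt01-011C05 and ND1. Print-tip loess gave 0.48, 0.27 and 0.65 for the same pairs. Myt01-019B12 kept r of 0.74 and 0.71 with Myt01-011C05, and 0.71 and 0.75 with ND6, in these settings.

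**Figure D3:**
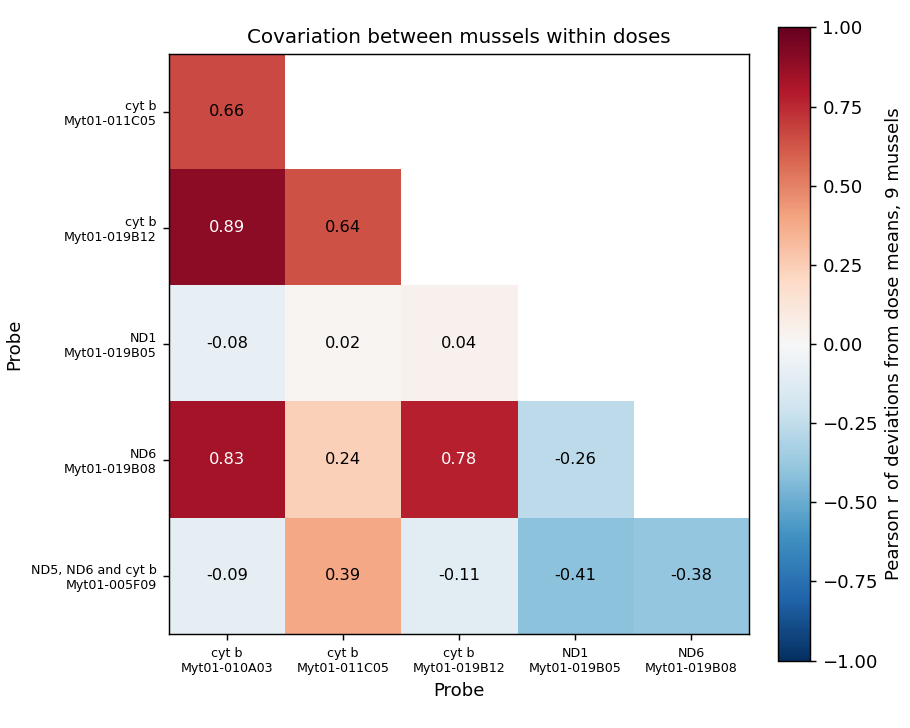
Pearson correlation (colour and number) of the deviations of 9 mussels from their dose means for each pair of the 6 probes, which are named on both axes. With the reported processing the 3 cytochrome b probes and ND6 had r of 0.24 to 0.89 with each other, and none of the 15 pairs passed the exact test after adjustment.

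The turned 50 nM replicate 3 moved these values: r became 0.57 for Myt01-010A03 and Myt01-019B12, 0.91 for Myt01-010A03 and Myt01-011C05, and 0.79 for Myt01-005F09 and Myt01-011C05. Without that mussel r was 0.83 for Myt01-010A03 and Myt01-019B12 (exact p = 0.0694), 0.75 for Myt01-010A03 and Myt01-011C05 (exact p = 0.0278), and -0.86 for ND1 and ND6 (exact p = 0.0833). Pairs that involve Myt01-019B12 also carry its saturated spots, whose part in the correlation was not tested.

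For each member, the probe with the most similar log2 ratios over the 9 mussels was taken from all others on the array, as a description. ND1 was closest to Myt01-002D08, heterogeneous nuclear ribonucleoprotein K, an RNA-binding protein, with r = 0.93 and rho = 0.98. Myt01-005F09 was closest to Myt01-001H07, a sequence without similarity (r = 0.91, rho = 0.93). The probes closest to the other 4 members carry no description here (r 0.90 to 0.94). The best-matching member was at rank 18 for ND6 and 19 for Myt01-019B12, which were each other's best match among members (r = 0.81), and at rank 72 to 279 for the other 4.

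The remaining respiratory-chain probes of the lists were counted for comparison. They were also chosen by the study on these samples, at 1 of the 3 doses each. Of 7 probes for other products of the mitochondrial genome (cytochrome c oxidase subunits I, II and III and ATP synthase F0 subunit 6), 0 were called by limma at any dose, and at an unadjusted p under 0.05 there were 0, 0 and 3 in the order of rising dose. Their mean was below 0 for 5 of 7 at 50 nM, 6 at 100 nM and 6 at 200 nM, with medians of -0.01, -0.23 and -0.34. Of 6 probes for nuclear products, 0 were called at any dose (1, 0 and 2 at an unadjusted p under 0.05), and 2 were below 0 at 50 nM, 6 at 100 nM and 4 at 200 nM, with medians of 0.03, -0.20 and -0.24. Over all 1920 probes 72, 183 and 347 had an unadjusted p under 0.05 in the order of rising dose, and 2.03% were called at 200 nM. Nothing is read from the counts of these lists, since listed values enter them. At 50 nM the median of the cytochrome b and ND probes was -0.33 and that of these 13 probes -0.01, whereas with replicate 3 turned they were 0.016 and 0.04. The difference between the groups was not tested, since listed values enter both.

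Among the oxidase probes, the catalytic subunit I was below 0 in all 3 mussels at 200 nM on both of its probes, -0.23, -0.48 and -0.50 for Myt01-006G10 and -0.35, -0.35 and -0.82 for Myt01-019B06. The subunit II probe Myt01-019B11, which shares the cluster of the cytochrome b probe Myt01-019B12, read -0.29, -0.54 and -0.85 at 200 nM, a mean of -0.56 ± 0.28 (SD, n = 3), beside -0.57 ± 0.45 for Myt01-019B12. It too was saturated, in 25 spots of both channels. Subunit III was measured by 3 probes that did not share a sign at 200 nM: Myt01-004F10 read 0.13, 0.81 and 0.56, Myt01-016F03 read -0.38, 0.07 and 0.02, and Myt01-019B03 read 0.27, -0.74 and -0.32. ATP synthase F0 subunit 6, part of the proton channel, read 0.02, -0.50 and -0.54.

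Among the nuclear products, cytochrome c, the carrier between complexes III and IV, read 0.52, 0.07 and 0.36 at 200 nM and was the only one of the 6, beside the electron transfer flavoprotein alpha subunit (0.46, 0.03 and 0.16), that was above 0 in all 3 mussels. The complex III probe of the nuclear genome, ubiquinol-cytochrome c reductase subunit 6, read -0.44, -0.30 and -0.26, a mean of -0.33 ± 0.10 (SD, n = 3). The cytochrome b probes of the same complex had means of -0.36 ± 0.14 (Myt01-010A03), -0.11 ± 0.10 (Myt01-011C05) and -0.57 ± 0.45 (Myt01-019B12) at 200 nM. The differences were not tested.

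**Figure D4:**
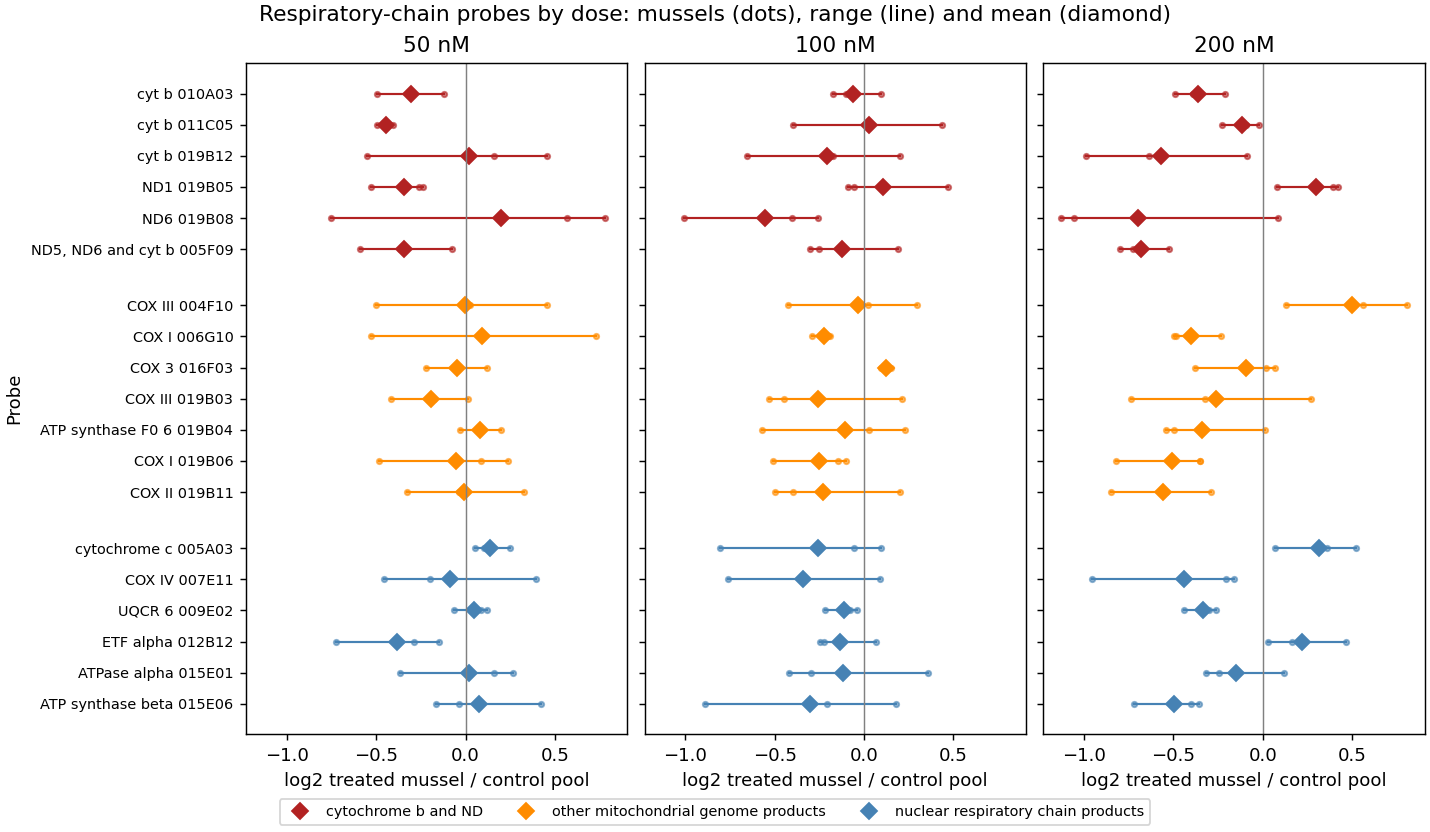
Log2 ratio of treated mussel over control pool (x axis) at the 3 doses for the 6 cytochrome b and ND probes (red), 7 probes of other mitochondrial genome products (orange) and 6 of nuclear products (blue); dots are mussels, lines their range and diamonds the mean. At 200 nM, ND1, the subunit III probe Myt01-004F10, cytochrome c and the flavoprotein subunit had all 3 mussels above 0.

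Probes for markers of gill cells and of other tissues, which the study also listed on these samples, moved in part with the 200 nM values. In bulk gill RNA, fewer cells of a type and less RNA per cell cannot be told apart. Of 33 marker probes, 26 were more than 2 SD above background on all arrays, 0 were called at 50 and 100 nM (3 and 11 at an unadjusted p under 0.05), and 1 was called at 200 nM (24 at an unadjusted p under 0.05), the gonad marker zona pellucida domain protein D at -0.71. Over all 1920 probes 72, 183 and 347 had an unadjusted p under 0.05 in limma at 50, 100 and 200 nM, and 2.03% were called at 200 nM. Since the markers were listed on these samples, nothing is read from their counts. At 200 nM the median was -0.56 for 10 probes of ciliated cells (9 below 0) and -0.54 for 4 of haemocytes (4 below 0), beside -0.47 for the 6 members. It was -0.33 for 10 probes of foot and byssus, -0.02 for 3 of muscle, 0.03 for 4 of digestive gland and -0.04 for 2 of gonad. At 100 nM the medians of the 6 marker lists lay between -0.40 (ciliated cells, 8 of 10 below 0) and -0.003 (foot and byssus), beside -0.09 for the members. At 50 nM the medians of the 6 marker lists lay between -0.20 (ciliated cells) and 0.12 (muscle), and with replicate 3 turned between -0.15 and 0.13. Their part in the values of the members was not tested.

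**Figure D5:**
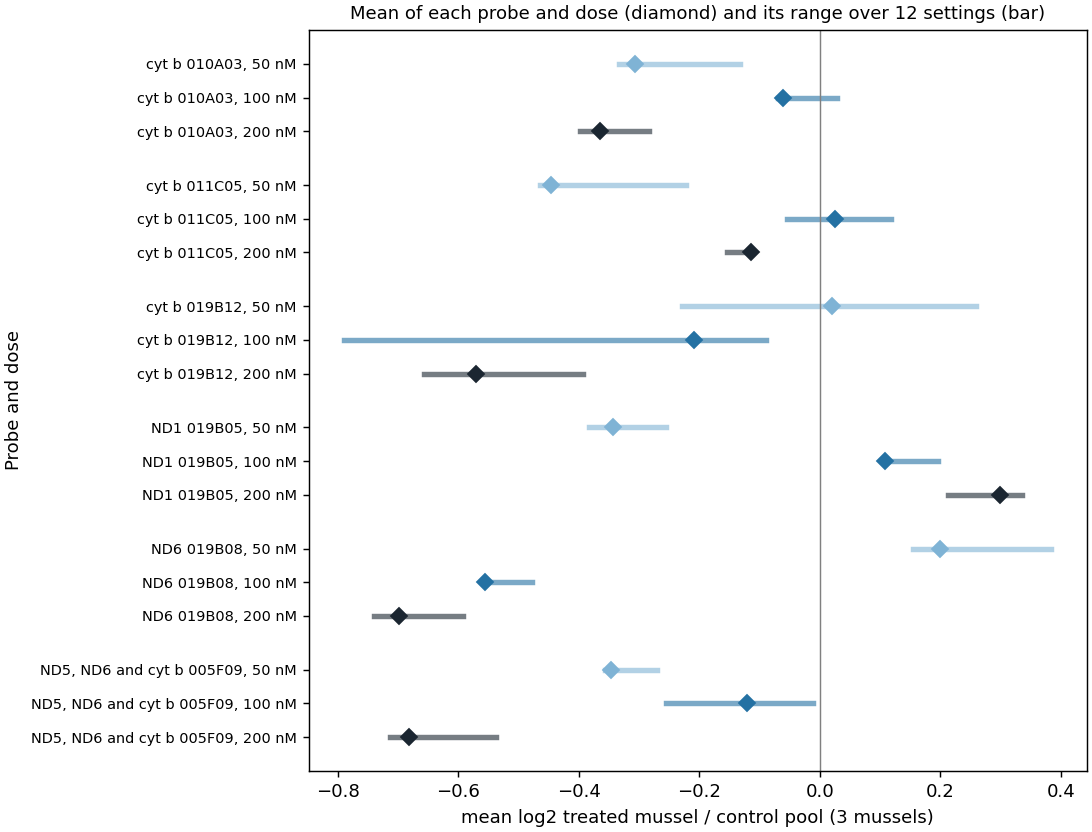
Mean log2 ratio of treated mussels over the control pool (x axis) for each probe and dose (rows, n = 3 mussels), with the reported mean as a diamond and the range over 12 settings of processing and fit as a bar. The bars of Myt01-019B12 are the widest, from -0.79 to -0.09 at 100 nM, and those of ND1 at 200 nM (0.21 to 0.34) and Myt01-005F09 at 200 nM (-0.71 to -0.54) stay on 1 side of 0.

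Over 12 settings of background correction, normalization and fit, 15 of the 18 means had the sign of the reported value under each. The exceptions were Myt01-010A03 and Myt01-011C05 at 100 nM and Myt01-019B12 at 50 nM. Fitting each dose alone, the replicate block, the filter on dim probes and the dye term cannot change a mean, so they add nothing to this count. The turned 50 nM replicate 3 is not among the 12 settings. With it, the 50 nM means of Myt01-010A03 and ND1 also changed sign, to 0.02 and 0.01. The call of Myt01-005F09 at 200 nM, a listed dose, did not hold with median centring alone, with the replicate number as a block, by SAM, with an error that also covers the spread expected of 5 pooled mussels, or without any mussel of 200 nM or 100 nM or without 50 nM replicate 2. Its mean at 200 nM lay between -0.76 and -0.62 when single mussels of that dose were left out.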

How the data were processed

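The 18 arrays set the gill RNA of 9 exposed mussels (50, 100 or 200 nM, 3 per dose) against 1 pool of 5 control mussels. The authors scanned the slides and deposited, for each spot and channel, an intensity value and its local background, before subtraction. The authors also deposited log2 ratios that were normalized in MIDAS (total intensity, then LOWESS), and these served as an alternative. Scan dates were not used here, and arrays A and B of a mussel share a slide.

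Background was corrected by normexp (offset 50), ratios were normalized within arrays by loess (span 0.3, 4 iterations), and the 2 spots and then the 2 arrays were averaged. limma 3.58.1 in R 4.3.3 (statmod 1.5.0 for correlated arrays) fitted 1 mean per dose, with Benjamini-Hochberg adjustment over 1920 probes and a threshold of 0.05. Intervals are 95% intervals of that fit. The number of mussels, 3 per dose, limits the precision. Covariation within doses was tested by exact permutation. The steps were checked on simulated data.

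The members, the lists and the tests were chosen with earlier results of these data known. The named probes are all 6 members, the respiratory-chain probes of the study's lists and, for each member, the probe with the highest r. Marker lists cover ciliated cells, haemocytes, muscle, foot and byssus, digestive gland and gonad, picked by words in the descriptions. No p-value of a single member against the pool was given at a dose where the study had listed it, though a call at such a dose was named. The ND1 difference between 200 and 50 nM, both listed, is given below with its adjusted p and is no independent test. Nothing was read from counts of calls that include listed doses. SAM used false discovery rates of 3% at 50 nM and 1.3% at 100 and 200 nM. Alternatives covered background, normalization, scaling, the fit, the filter on dim probes (1343 probes were kept), the dye term, the replicate block, single mussels left out and the direction of 50 nM replicate 3. Leaving out saturated spots and adding the spread of the pool were chosen after seeing the data.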

Additional observations from a re-analysis of the deposited data

Results flagged for a closer look

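The ND1 probe Myt01-019B05 lay above 0 in every mussel at 200 nM (0.08, 0.39 and 0.42) and below 0 in every mussel at 50 nM (-0.24, -0.26 and -0.53), a difference of 0.64 between the mean log2 ratios, 0.30 at 200 nM and -0.34 at 50 nM. It was picked out because all mussels of these doses moved in opposite directions. Over all 1920 probes, 2.92% showed such opposite signs at 200 and 50 nM and 1.61% did so in the direction of ND1. In the limma fit over all probes the difference was not past the threshold (adjusted p = 0.385, 95% interval 0.18 to 1.10), and since the study chose the probe at both doses, this fit is no independent test of it. When 50 nM replicate 3 was turned, the 50 nM mean was 0.01 and the mussels no longer shared a sign.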

How the results depend on the processing

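Counts of members called at 50 and 100 nM and between doses, and of pairs that varied together, were 0 under every alternative run for them (pairs at an unadjusted p under 0.05 were 0 to 5, and 4 as reported). At 200 nM the count was 1, as reported, under no or plain background subtraction, print-tip loess, equal scaling, each dose alone, the filter on dim probes, the 18 arrays with a dye term, the turned mussel and the saturated spots left out. It was 2 with the authors' values (Myt01-005F09 and Myt01-010A03), and 0 with median centring, by SAM and with the pool's spread added. Leaving out single mussels gave 0 to 1, with 1 left only without 50 nM replicate 1 or 3. For dye orientation, median centring alone gave 4 members; every other alternative gave 0.

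The replicate numbers name mussels of different tanks and do not pair them: the correlation of the deviations of same-numbered mussels over all probes lay between -0.10 and 0.15. With the replicate number as a block, 0 members were called at 200 nM, and over all probes 2 were called at 100 nM and 16 at 200 nM. It changed no other call of a member.

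The counts over all probes moved more. At 50 nM, 0 became 5 with replicate 3 turned and 0 to 2 with single mussels left out (2 without replicate 3). At 100 nM, 0 became 2 with median centring, 3 with the authors' values, 4 with each dose alone, 16 with the dye term, 15 with 50 nM replicate 3 turned, 10 by SAM and 0 to 9 with single mussels left out (9 without 50 nM replicate 3, 1 without 100 nM replicate 3). At 200 nM, 39 became 61 without subtraction, 97 with plain subtraction, 78 with print-tip loess, 20 with median centring (16 of them higher, against 17 of 39), 108 with the authors' values, 65 with each dose alone, 64 without dim probes, 160 with the dye term, 120 with the turned mussel, 0 with the pool's spread added, and 0 to 97 with single mussels left out: 72, 6 and 97 without 50 nM replicate 1, 2 or 3, 11 and 25 without 100 nM replicate 1 or 2, and 0, 1 and 0 without 200 nM replicate 1, 2 or 3.

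Some means near 0 changed sign. Myt01-010A03 at 100 nM was 0.029 with median centring. Myt01-011C05 at 100 nM was -0.055 without subtraction and -0.016 with plain subtraction, and -0.18 to 0.24 with single mussels left out. Myt01-019B12 at 50 nM was -0.0053 with print-tip loess, -0.021 with equal scaling and -0.23 without saturated spots, and -0.20 to 0.31 with single mussels left out; at 100 nM it was -0.41 to 0.014 so. ND1 at 100 nM was -0.073 to 0.21, and ND6 at 50 nM -0.093 to 0.67. The cause of these shifts was not tested. Saturation limits Myt01-019B12.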
